A study of Homo sapiens with 12 samples.

Results

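MB157R cells, which had become resistant to inhibition of Notch signaling, were compared with MB157 cells in which SOX2 was switched on, to see which parts of the expression state of the resistant cells were not present after SOX2 alone. MB157 is an established human triple-negative breast cancer (TNBC) cell line, described as wild type in the labels. The study describes MB157R as derived from it by long culture in a γ-secretase inhibitor (GSI). The GSI was LY3039478, at 1 µM for 25 weeks. This origin was not tested here. B2M, among other genes, had reads in MB157R but no count in any MB157 library, as given below. The study reports a deletion within NOTCH1 in MB157. It describes the resulting Notch receptor as lacking its extracellular part, active without a ligand and still sensitive to GSI. The comparison used 6 of the 12 RNA-seq libraries of the series: 3 of MB157R carrying a doxycycline-inducible empty vector (MB157R iEV) and 3 of MB157 carrying a doxycycline-inducible SOX2 (MB157 iSOX2). A further 3 libraries, of MB157 with the empty vector (MB157 iEV), are set beside them. The label protocol gives 1 µg/ml doxycycline for 72 h for induction of SOX2 or N1-ICD. All 3 groups are labelled as doxycycline samples. By design the 2 cell groups therefore differed in 2 ways, the long selection in GSI and the induced gene. Whether they also differed in other ways, such as in their DNA, was not tested. MB157R stands for 1 resistant population, so its 3 libraries do not sample separate derivations, and whether it was in GSI when RNA was taken is not given in the sources used here. The study calls its replicates biological and the labels do not say whether they were separate cultures, so p-values cover only the variation among the libraries. Of 29744 gene entries, the 16907 with a mean of at least 5 estimated counts over the 6 libraries were tested.

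Notch receptors are cut by γ-secretase once a ligand of the Delta or Jagged family pulls on them, and the freed intracellular domain (N1-ICD for NOTCH1) joins the DNA-binding protein RBPJ to switch on target genes. Among the best known targets are the HES and HEY genes, which encode transcriptional repressors, and MYC and CCND1 in some cancers. SOX2 is a transcription factor with a high-mobility-group DNA-binding domain that keeps embryonic and many adult progenitor cells undifferentiated. In breast cancer it is often discussed together with epithelial to mesenchymal transition (EMT), in which epithelial cells loosen their junctions and take on mesenchymal adhesion and matrix genes, and with stem-like surface markers.

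The libraries held 40907451 to 49055208 estimated counts for MB157R iEV, 39826541 to 43344439 for MB157 iSOX2 and 32773820 to 43033713 for MB157 iEV. Levels are given as TMM-scaled CPM, counts relative to the library total adjusted by the trimmed mean of M-values. The quasi-likelihood test of edgeR called a gene at a Benjamini-Hochberg adjusted p under 0.05, and log2 fold changes are MB157R iEV minus MB157 iSOX2. Differences were so widespread that a call by itself says little. Of all genes tested 87.3% were called, 42.7% higher and 44.6% lower in MB157R iEV, and for 87.9% the 3 libraries of one group did not overlap those of the other. Called differences of at least 4-fold made up 12.4% (higher) and 14.7% (lower). The numbers called in each list below are to be read beside these shares. In the comparison of iSOX2 with iEV, 25.4% were called higher and 27.0% lower, and for MB157R iEV against MB157 iEV 42.6% were higher and 44.0% lower. These last comparisons share libraries with the first and are given only as values for the same genes. When scaled by library totals alone, the median log2 fold change of all genes moved from -0.04 to -0.18, so small differences depend on the scaling.

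MB157R iEV differed from iSOX2, and mostly from MB157 iEV as well, in genes that were on in one and nearly or fully without reads in the other. A mean of 10 CPM or more in MB157R iEV together with no more than 0.1 CPM in each iSOX2 library was seen for 156 genes, and 125 of them were no higher than this in the MB157 iEV libraries either. For 40 genes no count was seen in any of the 6 MB157 libraries. Among these were B2M, the small invariant subunit of MHC class I molecules (chromosome 15, 44711517 to 44718145), ANP32A, a nuclear phosphoprotein (chromosome 15, 68778535 to 68820895), and ZMYM2, a zinc finger protein of repressor complexes. All of these are broadly expressed genes. B2M stood at 685, 697 and 794 CPM in the MB157R iEV libraries, ANP32A at 339, 349 and 347 CPM and ZMYM2 at a mean of 101 CPM. Some others of the 40 shared a chromosome. SPG11 lay on chromosome 15, and PSPC1 and ZMYM5 on chromosome 13 with ZMYM2. CD302, LY75, PLA2R1 and ITGB6 lay on chromosome 2. Whether such genes lie side by side was not tested. In the other direction the same limits gave 174 genes on in iSOX2, of which 151 also had a mean of 10 CPM or more in MB157 iEV, and 113 had no count in MB157R iEV. PYCR1, an enzyme of proline synthesis, stood at a mean of 256 CPM in iSOX2 and 0.0168 CPM in MB157R iEV. The deposited values are counts per gene and hold no genotype. Whether MB157R came from MB157, whether both share 1 genome, and what part of the differences lies in the DNA were therefore not tested.

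The differences were also uneven along the genome. The median log2 fold change of the tested genes of a chromosome ran from -0.71 on chromosome 20 to 0.85 on chromosome 15, where 358 of 480 genes were called higher in MB157R iEV. The same medians for iSOX2 against MB157 iEV stayed between -0.07 and 0.07. For MB157R iEV against MB157 iEV they were -0.59 on chromosome 20 and 0.84 on chromosome 15. A gene's chromosome therefore moved with its difference between the cell lines, and the part of this in any single result was not tested.

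**Figure D1:**
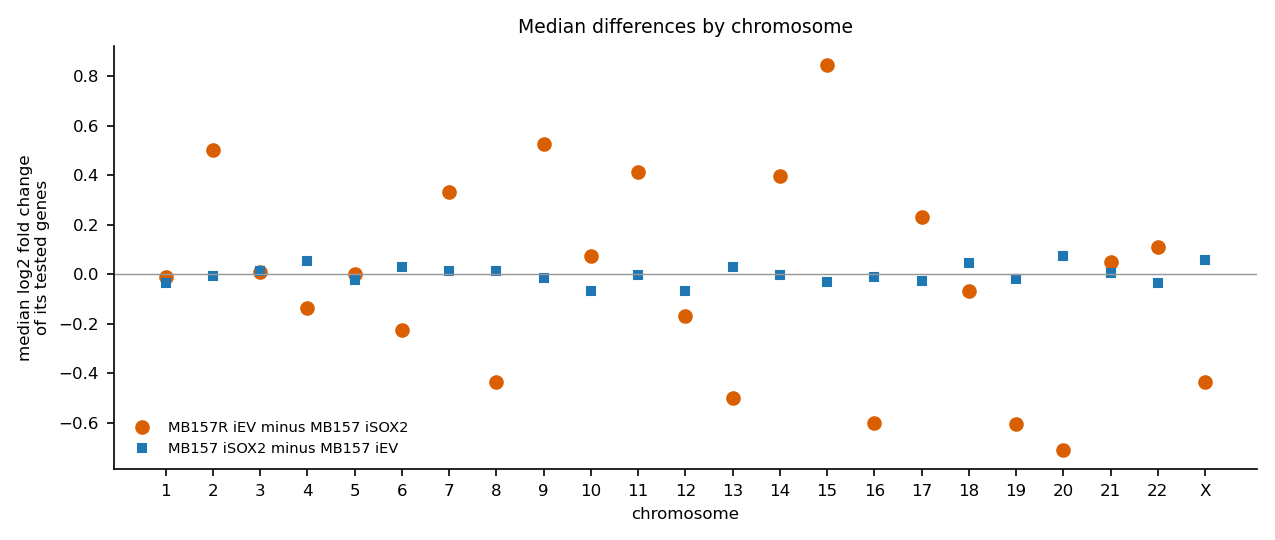
Median log2 fold change of the tested genes of each chromosome (vertical axis) for MB157R iEV minus MB157 iSOX2 (orange circles) and for MB157 iSOX2 minus MB157 iEV (blue squares). The circles spread from -0.71 on chromosome 20 to 0.85 on chromosome 15, while the squares stay within 0.07 of 0.

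The markers of the cells were those of epithelial tumor cells in both groups. All 6 epithelial markers were present, with a summed level of 5358 to 5421 CPM in MB157R iEV and 1752 to 1793 CPM in iSOX2. Of the receptors that define TNBC, ESR1 stood at 1.93 ± 0.214 CPM in MB157R iEV and 0.230 ± 0.139 CPM in iSOX2 (SD, n = 3 libraries), PGR at 3.76 ± 0.638 and 1.61 ± 0.254 CPM, and ERBB2 at 173 ± 1.40 and 120 ± 3.87 CPM. Fibroblast markers summed to 88.6 to 99.9 CPM in MB157R iEV and 68.0 to 74.3 CPM in iSOX2, leukocyte markers to 5.24 to 6.92 and 17.3 to 19.5 CPM, and neural markers to 219 to 230 and 242 to 253 CPM. Muscle markers reached at most 0.221 CPM. Endothelial markers summed to 4.82 to 5.21 CPM in MB157R iEV and 101 to 110 CPM in iSOX2, where most of it was PECAM1, at 90.4, 97.8 and 89.2 CPM. CDH5, the cadherin that defines endothelium, had 2 counts over the iSOX2 libraries. It was called higher in MB157R iEV than in iSOX2 (log2 fold change 6.48, edgeR adjusted p = 5.85e-07). Of 6 tested endothelial markers 2 were called higher in MB157R iEV and 4 lower. In bulk RNA, fewer cells of a type and less RNA per cell cannot be told apart.

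SOX2 was more abundant in the induced cells than in the resistant ones. SOX2 (chromosome 3, 181711925 to 181714436) stood at 285, 328 and 292 CPM in the iSOX2 libraries, 64.3, 67.6 and 55.7 CPM in MB157R iEV and 6.54, 7.64 and 6.93 CPM in MB157 iEV, with no overlap between any of the groups. It was thus 4.82-fold lower in MB157R iEV than in iSOX2 (log2 fold change -2.26, standard error 0.074, edgeR adjusted p = 1.0e-10), and 42.9-fold higher in iSOX2 than in MB157 iEV. Counts per gene do not separate the SOX2 transgene from the endogenous gene. SOX2-OT, a long non-coding RNA whose gene spans SOX2 (chromosome 3, 181056680 to 181742228), was at 21.0 ± 0.362 CPM in iSOX2, 1.48 ± 0.214 CPM in MB157R iEV and 0.153 ± 0.0793 CPM in MB157 iEV. Because the 2 genes overlap, its reads cannot be told apart from those of SOX2 with certainty.

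The SOX family was mostly lower in MB157R iEV than in iSOX2: of 13 tested members 10 were called lower and 3 higher. The median log2 fold change was -2.26 against -0.04 over all genes tested. These members include the induced SOX2, whose own value is this median. Against MB157 iEV, 6 members were called higher and 6 lower in MB157R iEV (median -0.03). SOX21, which acts beside SOX2 in neural progenitors, was at 24, 25.1 and 24.9 CPM in iSOX2 and 1.21, 0.859 and 0.781 CPM in MB157R iEV, and at 0.472 ± 0.164 CPM in MB157 iEV. SOX13 stood at 301 ± 9.03 CPM in iSOX2, 74.5 ± 2.12 CPM in MB157R iEV and 76.4 ± 4.93 CPM in MB157 iEV. Both genes were thus higher in iSOX2 than in either of the other groups. SOX11, a SOX gene of the developing nervous system, had no count in MB157R iEV and stood at 42.5 ± 1.00 CPM in iSOX2, a difference of at least 1810-fold. This bound, like all of those below, sets the group without counts at a floor of 3 counts over its 3 libraries and covers counting error only. SOX7 and SOX4 went the other way. SOX7, of the subgroup that acts in vessels, was at 79.0, 76.9 and 80.0 CPM in MB157R iEV against 0.910, 1.27 and 0.863 CPM in iSOX2, a 77.5-fold difference, and SOX4 was 5.60-fold higher, at 1555 ± 15.4 against 278 ± 5.01 CPM.

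Genes that responded most to SOX2 in MB157 were next set beside their level in MB157R. They are the 6 largest rises and 6 largest falls of iSOX2 against MB157 iEV among genes averaging 10 CPM or more, so their difference from MB157 iEV chose them and is only described. A choice of high values in iSOX2 or MB157 iEV also favors lower values elsewhere, so no direction is read from these genes together. GJA1, which encodes the gap junction protein connexin 43 (chromosome 6, 121435646 to 121449727), had 0.365, 0.307 and 0.316 CPM in MB157 iEV, 72.4, 72.7 and 80.6 CPM in iSOX2 and 245, 247 and 251 CPM in MB157R iEV. It was therefore 3.29-fold higher in the resistant cells than after SOX2 (log2 fold change 1.72, standard error 0.043, edgeR adjusted p = 9.2e-12). Each of the others is given by its own values. PECAM1, a cell adhesion molecule of endothelium and platelets, reached 90.4, 97.8 and 89.2 CPM in iSOX2 but 0.474, 0.430 and 0.369 CPM in MB157R iEV, and had 3 counts over the MB157 iEV libraries. CDH6, a cadherin of the kidney and nervous system, stood at 23.5 ± 0.610 CPM in iSOX2 and had no count in MB157R iEV, at least 1002-fold lower. FAM65B was at 40.3 ± 1.49 CPM in iSOX2 and 2.17 ± 0.190 CPM in MB157R iEV, and SPOCK3, a secreted proteoglycan, at 27.2 ± 1.04 and 9.85 ± 0.592 CPM.

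The genes that fell most with SOX2, all chosen through a high level in MB157 iEV, differed in both directions between MB157R iEV and iSOX2. OLFM4, a secreted glycoprotein of intestinal stem cells and a Notch target there, stood at 183, 194 and 171 CPM in MB157 iEV, 6.06, 6.16 and 6.07 CPM in iSOX2 and 0.853, 0.480 and 0.586 CPM in MB157R iEV, 9.53-fold lower than after SOX2. TF, which encodes transferrin, was at 45.5 ± 2.0 CPM in MB157 iEV and 1.99 ± 0.180 CPM in iSOX2 and had no count in MB157R iEV. MGP, an inhibitor of calcification, was 63.2-fold lower in MB157R iEV than in iSOX2. AQP4, a water channel, was closer, at 1.48 ± 0.321 against 2.37 ± 0.0848 CPM, 1.60-fold lower. MYEOV and ADORA2A, an adenosine receptor, were instead higher in MB157R iEV than in iSOX2, 2.97-fold and 2.31-fold.

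A small number of abundant genes stood far above MB157 iEV at levels that the test did not separate between MB157R iEV and iSOX2. They were named after their values were seen, from the 7 genes averaging 10 CPM or more over the 6 libraries, at least a 4-fold difference between MB157R iEV and MB157 iEV, and no call here. LYPD1, a membrane-anchored protein of the Ly6 family, stood at 110 ± 3.88 CPM in MB157R iEV, 114 ± 2.08 CPM in iSOX2 and 3.99 ± 0.468 CPM in MB157 iEV. The log2 fold change between the first pair was -0.05, with a 95% confidence interval from -0.13 to 0.04. PCDH7, a protocadherin, stood at 15 ± 0.0409, 15.6 ± 0.904 and 0.456 ± 0.128 CPM in the same order, with an interval from -0.18 to 0.09. EDIL3, an extracellular ligand of integrins, stood at 32.5 ± 1.44, 30.9 ± 0.854 and 1.15 ± 0.441 CPM, with an interval from -0.03 to 0.19. The remaining 4 were NEDD9, a docking protein of focal adhesions, CACNA2D1, REPS2 and FRAS1, a matrix protein, which were 4.61-fold to 5.61-fold higher in iSOX2 than in MB157 iEV. These intervals leave room for small differences. Scaled by library totals alone, 6 of the 7, all but EDIL3, were called lower in MB157R iEV (log2 fold changes from -0.32 for FRAS1 to -0.19 for LYPD1, edgeR adjusted p from 0.00118 to 0.0218). LYPD1 was also called lower among genes with a mean count of at least 50 (edgeR adjusted p = 0.0445). On the genes of the authors' filtered tables LYPD1 and NEDD9 were called lower (edgeR adjusted p = 0.0179 and 0.0499). NEDD9, REPS2 and FRAS1 were called lower without MB157R iEV replicate 3 (edgeR adjusted p from 0.018 to 0.0227).

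**Figure D2:**
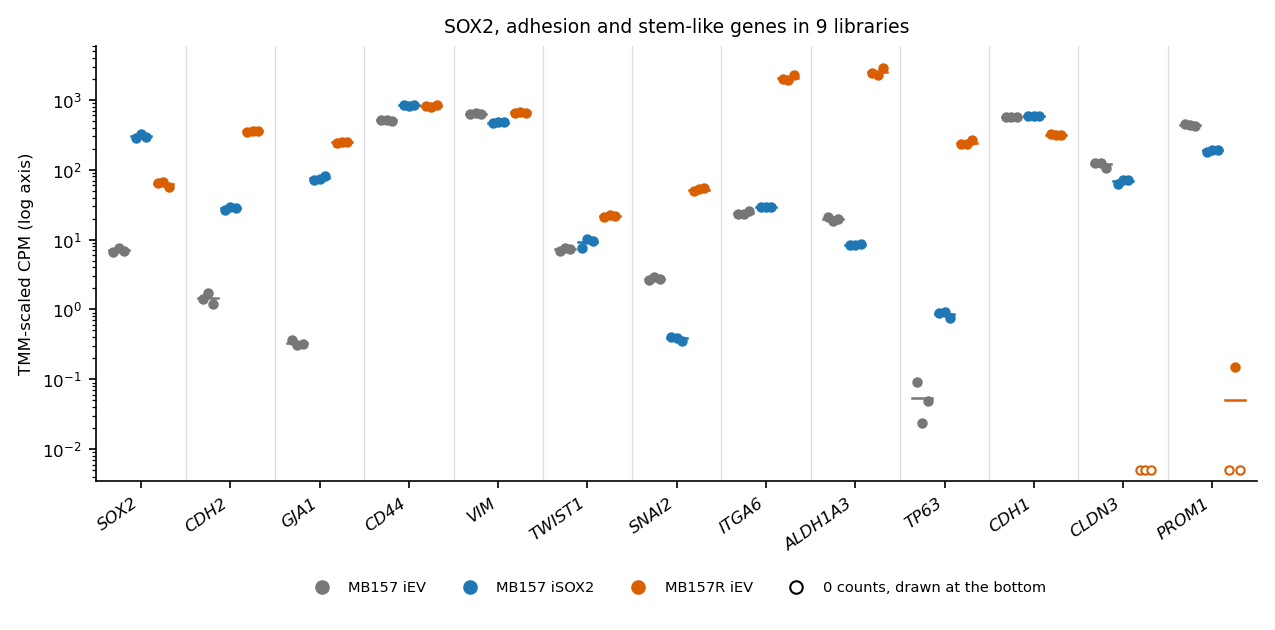
TMM-scaled CPM (vertical log axis) of 13 genes in each of the 3 MB157 iEV (grey), 3 MB157 iSOX2 (blue) and 3 MB157R iEV libraries (orange), where lines mark means and open circles on the lower edge stand for libraries with 0 counts. The CD44 points of MB157R iEV and iSOX2 overlap, SOX2 is highest in iSOX2, and ITGA6, ALDH1A3 and SNAI2 are high in MB157R iEV alone.

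The HES and HEY genes ranged from HES1, which was not separated between the 2 cell groups, to 3 genes without a count in MB157R iEV. Their promoters are shown because RBPJ and SOX proteins recognize short DNA motifs that may occur in them. Each line gives the 250 bases before the RefSeq start of the gene on GRCh38.p14, on the strand of the gene, 5′ to 3′. Capitals mark the RBPJ core motif TGGGAA and the SOX core motifs ACAAAG and ACAATG, read on both strands, and no RBPJ match overlaps a SOX match.
HES1 (chr3:194135898-194136147, plus strand): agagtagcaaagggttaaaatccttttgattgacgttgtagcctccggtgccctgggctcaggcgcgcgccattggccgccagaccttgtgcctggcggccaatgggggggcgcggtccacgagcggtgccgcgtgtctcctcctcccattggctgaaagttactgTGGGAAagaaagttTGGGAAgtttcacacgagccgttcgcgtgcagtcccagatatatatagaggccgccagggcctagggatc
HES5 (chr1:2530264-2530513, minus strand): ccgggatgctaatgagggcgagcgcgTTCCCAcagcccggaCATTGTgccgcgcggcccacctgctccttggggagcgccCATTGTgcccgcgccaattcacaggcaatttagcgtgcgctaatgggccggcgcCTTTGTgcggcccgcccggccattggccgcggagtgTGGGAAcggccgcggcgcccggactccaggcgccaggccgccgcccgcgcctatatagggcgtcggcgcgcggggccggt
HEYL (chr1:39639644-39639893, minus strand): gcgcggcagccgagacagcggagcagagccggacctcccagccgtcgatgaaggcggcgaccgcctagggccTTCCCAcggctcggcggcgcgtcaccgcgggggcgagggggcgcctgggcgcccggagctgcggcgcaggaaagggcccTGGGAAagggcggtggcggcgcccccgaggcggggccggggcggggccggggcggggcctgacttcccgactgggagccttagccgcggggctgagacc
HEY2 (chr6:125749382-125749631, plus strand): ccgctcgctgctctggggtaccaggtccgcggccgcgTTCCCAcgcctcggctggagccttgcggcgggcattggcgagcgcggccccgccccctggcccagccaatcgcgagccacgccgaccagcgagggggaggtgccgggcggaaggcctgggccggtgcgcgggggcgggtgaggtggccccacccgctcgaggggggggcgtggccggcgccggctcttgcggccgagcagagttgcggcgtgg

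In HES1 the matches to TGGGAA begin 84 and 70 bases before the start and face the same way. RBPJ sites with other letters were not searched. HES5 held 2 RBPJ and 3 SOX matches, HEYL 2 RBPJ matches and HEY2 1. No SOX match was found in the windows of HES1, HEYL and HEY2. Of 35116 promoters of this length, 20.85% held the RBPJ core, 21.23% a SOX core and 4.858% both, so a match is a description of these letters.

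HES1 (chromosome 3, 194136148 to 194138732) stood at 43.8, 49.99 and 46.4 CPM in MB157R iEV and 44.9, 43.8 and 43.5 CPM in iSOX2. The libraries overlapped and HES1 was not called (log2 fold change 0.09, 95% confidence interval -0.02 to 0.20, edgeR adjusted p = 0.105). Both groups lay below MB157 iEV, at 80.7, 77.3 and 80.3 CPM. Without MB157R iEV replicate 1, HES1 was called at a log2 fold change of 0.12 (edgeR adjusted p = 0.0489). HEYL (chromosome 1, 39623435 to 39639643) had no count in MB157R iEV and stood at 8.17, 8.44 and 8.10 CPM in iSOX2 and 18.8, 17.0 and 17.8 CPM in MB157 iEV. It was at least 351-fold lower in MB157R iEV than in iSOX2. HEY2 (chromosome 6, 125749632 to 125761269) likewise had no count in MB157R iEV against 1.10, 1.97 and 2.01 CPM in iSOX2 and 10.9 ± 0.849 CPM in MB157 iEV, a difference of at least 73.0-fold. HES5 (chromosome 1, 2528745 to 2530263) had no count against 0.383, 0.833 and 0.398 CPM in iSOX2 and 2.97 ± 0.330 CPM in MB157 iEV, at least 23.2-fold lower. HEYL, HEY2 and HES5 were thus partly reduced after SOX2 and not detectable in the resistant cells at this depth.

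HEY1 did not follow the other HEY genes. It stood at 47.1, 52.7 and 45.6 CPM in iSOX2, 5.41, 4.53 and 4.43 CPM in MB157 iEV and 0.924, 0.632 and 0.651 CPM in MB157R iEV. It was thus 10.1-fold higher after SOX2 than with the empty vector, and 65.9-fold lower in MB157R iEV than in iSOX2 (log2 fold change -6.03, standard error 0.17, edgeR adjusted p = 7.6e-13). HES4 was 1.5-fold higher in MB157R iEV than in iSOX2, and BHLHE41, which represses genes of the circadian clock, 38.4-fold higher, at 10.7 ± 0.750 against 0.279 ± 0.0905 CPM. Of the 11 tested genes of the HES and HEY list, which also holds BHLHE41, 5 were called higher, 4 lower and 2 were not called.

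Receptors and ligands of the pathway went in both directions. NOTCH1 (chromosome 9, 136494433 to 136546048) stood at 105, 88.2 and 94.0 CPM in MB157R iEV, 35.4, 39.9 and 35 CPM in iSOX2 and 109, 98.8 and 105 CPM in MB157 iEV. Its level in the resistant cells was 2.6-fold above that after SOX2 (log2 fold change 1.39, standard error 0.070, edgeR adjusted p = 4.1e-09) and overlapped the range of MB157 iEV. Counts per gene do not show which part of NOTCH1 was read, and the study reports a deletion within this gene in MB157. NOTCH3 was 10.8-fold lower in MB157R iEV, at 50.4 ± 3.04 against 545 ± 11.2 CPM, and NOTCH2 1.65-fold lower. The ligand genes JAG1 and DLL1 were higher in MB157R iEV. JAG1 stood at 499, 486 and 513 CPM there, 33.2, 32.0 and 33.2 CPM in iSOX2 and 16.2 ± 0.553 CPM in MB157 iEV, and DLL1 was 19.8-fold higher than in iSOX2. LFNG, which adds sugars to Notch receptors and so changes the ligand they answer to, was 19.1-fold higher, at 131 ± 3.86 against 6.86 ± 0.153 CPM. Over the 33 tested receptors, ligands and signaling components, 15 were called higher and 17 lower, beside 42.7% and 44.6% of all genes tested. Their median log2 fold change was -0.18. RBPJ itself was 1.14-fold lower in MB157R iEV (102 ± 4.86 against 116 ± 1.21 CPM), and PSEN2, a catalytic subunit of γ-secretase, was not called (interval of the log2 fold change -0.12 to 0.09), though scaling by library totals alone called it lower at -0.16.

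The NOTCH signature of 77 genes was split in MB157R iEV against iSOX2, with 40 members called higher, 32 lower and 5 not called, and a median log2 fold change of 0.29. Part of this signature had been chosen on libraries that include MB157R iEV, so its counts are not independent evidence of a direction. Against MB157 iEV, 18 members were called higher and 49 lower in iSOX2, and 32 higher and 41 lower in MB157R iEV. NRARP, a feedback inhibitor of Notch, was 1.84-fold lower in MB157R iEV than in iSOX2, at 13.5 ± 0.815 against 24.8 ± 1.42 CPM, with MB157 iEV at 87.0 ± 1.52 CPM. MYC stood at 215, 211 and 244 CPM in MB157R iEV, 170, 193 and 180 CPM in iSOX2 and 318 ± 10.2 CPM in MB157 iEV. It was 1.23-fold higher in the resistant cells than after SOX2. CCND1, which encodes cyclin D1, stood at 1218, 1175 and 1157 CPM in MB157R iEV, 265, 279 and 274 CPM in iSOX2 and 801 ± 33.6 CPM in MB157 iEV. It was thus 4.34-fold higher in MB157R iEV than in iSOX2, and lower after SOX2 than with the empty vector. CYP1B1, a cytochrome P450 of the signature, was 80.6-fold lower in MB157R iEV, and PAPPA, a protease that frees insulin-like growth factors, stood at 15 ± 2.39 CPM there with 2 counts over the iSOX2 libraries.

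**Figure D3:**
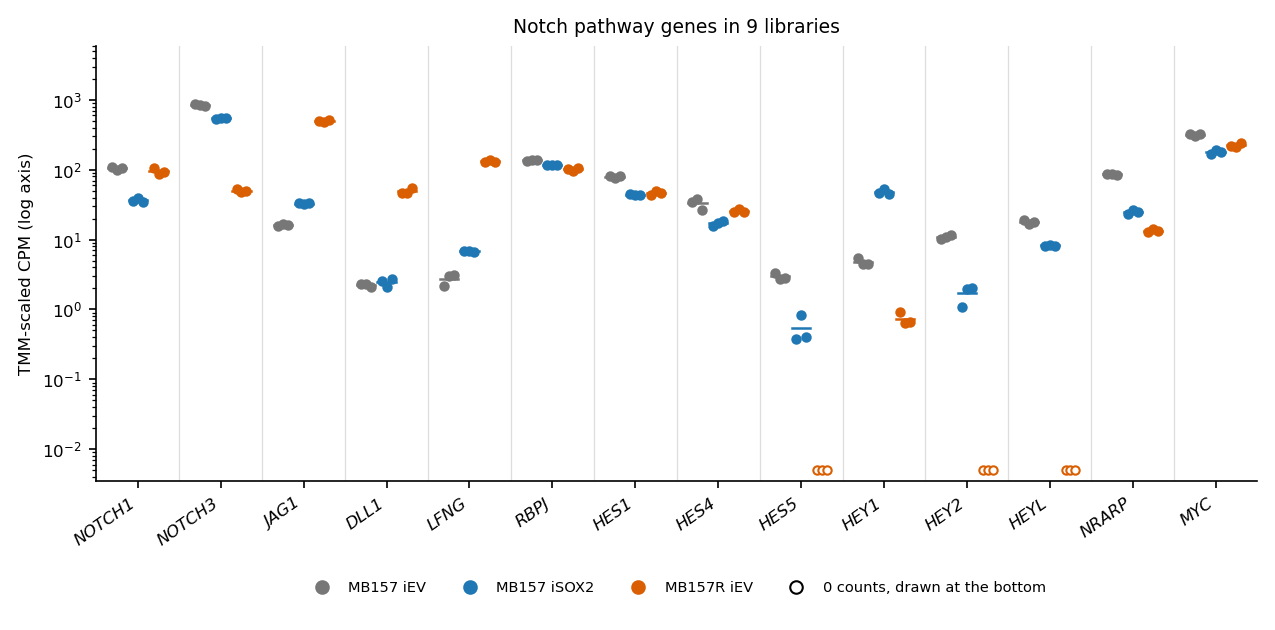
TMM-scaled CPM (vertical log axis) of 14 Notch pathway genes in each library of MB157 iEV (grey), MB157 iSOX2 (blue) and MB157R iEV (orange), where lines mark means and open circles on the lower edge stand for libraries with 0 counts. The HES1 points of MB157R iEV and iSOX2 overlap, HEY1 rises to a mean of 48.5 CPM with SOX2, and HES5, HEY2 and HEYL have no count in MB157R iEV.

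Many mesenchymal genes stood in MB157R iEV at levels that were not reached in iSOX2 after 72 h. CDH2, which encodes the mesenchymal cadherin N-Cadherin (chromosome 18, 27932879 to 28177130), stood at 346, 359 and 357 CPM in MB157R iEV, 26.9, 29.0 and 28.3 CPM in iSOX2 and 1.40, 1.72 and 1.19 CPM in MB157 iEV. The resistant cells were thus 12.6-fold above iSOX2 (log2 fold change 3.66, standard error 0.038, edgeR adjusted p = 1.6e-14), which was itself 19.5-fold above MB157 iEV. For other genes of this kind iSOX2 was close to MB157 iEV. FN1, which encodes the matrix protein fibronectin, was at 1726, 1515 and 1800 CPM in MB157R iEV, 7.71, 7.44 and 7.93 CPM in iSOX2 and 4.99 ± 0.281 CPM in MB157 iEV. AXL, a receptor tyrosine kinase tied to EMT, was at 227, 224 and 259 CPM in MB157R iEV with 10 counts over the iSOX2 libraries. MMP14, a membrane-bound matrix protease, stood at 870 ± 69.2 CPM against 0.356 ± 0.0488 CPM. VIM, the intermediate filament vimentin, differed little in comparison: it was at 654, 680 and 656 CPM in MB157R iEV and 460, 474 and 478 CPM in iSOX2, 1.41-fold higher, with MB157 iEV at 636 ± 8.38 CPM.

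Of 39 tested mesenchymal adhesion, cytoskeleton and matrix genes, 24 were called higher in MB157R iEV, 12 lower and 3 were not called, with a median log2 fold change of 1.33. The lower genes included SDC2, a membrane proteoglycan with no count in MB157R iEV and 275 ± 6.27 CPM in iSOX2, and S100A4, a calcium-binding protein of motile cells, which was 148-fold lower. CTGF, a matrix protein and target of the YAP co-activator, was 5.21-fold lower. Against MB157 iEV, 18 of these genes were called higher and 9 lower in iSOX2.

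Among the transcription factors of EMT, SNAI2, TWIST1 and ZEB2 were higher in MB157R iEV and TWIST2 and SNAI1 lower. SNAI2, which encodes SLUG, stood at 49.1, 52.5 and 54.3 CPM in MB157R iEV, 0.407, 0.395 and 0.354 CPM in iSOX2 and 2.65, 2.95 and 2.70 CPM in MB157 iEV. It was 135-fold higher in MB157R iEV than in iSOX2 (log2 fold change 7.07, standard error 0.16, edgeR adjusted p = 3.6e-14), and in iSOX2 it was 7.17-fold below MB157 iEV. TWIST1 was at 21.0, 22.7 and 22 CPM in MB157R iEV against 7.54, 10.3 and 9.61 CPM in iSOX2, 2.39-fold higher. ZEB2 was at 8.14 ± 0.352 CPM with 1 count over the iSOX2 libraries, while TWIST2 had no count in MB157R iEV and was at least 264-fold lower than in iSOX2. Of the 21 tested factors and their epithelial opponents 8 were called higher and 12 lower, with a median log2 fold change of -1.24. The lower ones included epithelial factors: ELF5, of luminal progenitors, stood at 141, 136 and 145 CPM in iSOX2 with 2 counts over the MB157R iEV libraries, and ESRP1, a splicing regulator of epithelia, was 2.37-fold lower.

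Epithelial junction genes differed in both directions. CDH1, the epithelial cadherin, stood at 326, 312 and 313 CPM in MB157R iEV, 583, 582 and 584 CPM in iSOX2 and 574, 565 and 574 CPM in MB157 iEV. It was 1.84-fold lower in the resistant cells, and was not separated between iSOX2 and MB157 iEV (adjusted p = 0.413 from edgeR's fit of the 9 libraries). CLDN3, the gene of the tight junction component Claudin-3 (chromosome 7, 73768997 to 73770270), had no count in MB157R iEV and stood at 62.1, 72.3 and 72.4 CPM in iSOX2, at least 2946-fold lower. CLDN1, another claudin, was 473-fold higher, at 818 ± 42.8 against 1.73 ± 0.320 CPM. DSP, the desmosomal plaque protein desmoplakin, was 4.45-fold lower. Of 35 tested junction genes 13 were called higher, 21 lower and 1, MARVELD2, was not called, with a median log2 fold change of -0.35. Scaled by library totals alone, MARVELD2 was called lower as well (edgeR adjusted p = 0.0461).

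CD44 was 1 of 2 stem-like markers that were not called between MB157R iEV and iSOX2. CD44, a hyaluronan receptor (chromosome 11, 35139171 to 35232402), stood at 806, 782 and 852 CPM in MB157R iEV, 852, 828 and 847 CPM in iSOX2 and 508, 521 and 493 CPM in MB157 iEV. The first pair overlapped (log2 fold change -0.04, 95% confidence interval -0.11 to 0.03, edgeR adjusted p = 0.221), and both lay above every MB157 iEV library. Without MB157R iEV replicate 3, CD44 was called lower at a log2 fold change of -0.10 (edgeR adjusted p = 0.00531). ITGA6, which encodes the integrin CD49f (chromosome 2, 172427336 to 172506459), was at 1998, 1951 and 2288 CPM in MB157R iEV, 29.0, 29.0 and 29.3 CPM in iSOX2 and 23.4, 23.1 and 26.0 CPM in MB157 iEV. It was therefore 71.5-fold higher than after SOX2 (log2 fold change 6.17, standard error 0.052, edgeR adjusted p = 9.7e-15). NT5E, which encodes CD73, was 395-fold higher, at 270 ± 23.0 against 0.684 ± 0.146 CPM.

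Other stem-like markers were lower in the resistant cells. PROM1, which encodes CD133, stood at 180, 193 and 194 CPM in iSOX2 and 434 ± 9.14 CPM in MB157 iEV, with 6 counts over the MB157R iEV libraries, all in 1 of them. KIT, a receptor tyrosine kinase of blood and pigment cell precursors, was 55.5-fold lower, at 2.53 ± 0.619 against 140 ± 4.60 CPM. LGR5, a receptor of R-spondins on intestinal stem cells, was at 1.18 CPM in MB157R iEV, 9.15 CPM in iSOX2 and 0.300 CPM in MB157 iEV (means). Of 21 tested markers 10 were called higher and 9 lower, near the shares over all genes tested (42.7% and 44.6%). The median log2 fold change was -0.04. ALDH1A3, the retinaldehyde dehydrogenase that often accounts for ALDH activity in breast tumors (chromosome 15, 100879831 to 100916626), stood at 2429, 2286 and 2850 CPM in MB157R iEV, 8.29, 8.42 and 8.63 CPM in iSOX2 and 20.7, 18.5 and 19.4 CPM in MB157 iEV. It was 299-fold higher than after SOX2, and iSOX2 lay below MB157 iEV. ALDH1A1, its paralog, was at 1.07 ± 0.0737 CPM in iSOX2 with 3 counts over the MB157R iEV libraries, and the level of ALDH2, a mitochondrial enzyme of alcohol metabolism, was 541-fold lower. Of the 19 tested family members 8 were called higher and 11 lower, beside 42.7% and 44.6% of all genes tested.

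Basal genes and integrins were mostly higher in MB157R iEV than after SOX2. TP63, the transcription factor of basal epithelium (chromosome 3, 189596746 to 189897276), stood at 237, 230 and 266 CPM in MB157R iEV, 0.886, 0.921 and 0.753 CPM in iSOX2 and 0.0545 ± 0.0342 CPM in MB157 iEV. It was thus 286-fold higher in MB157R iEV than in iSOX2. LAMA3, an α-chain of laminin-332, was 137-fold higher. COL17A1, a hemidesmosomal collagen, was 24.7-fold higher and was also 39.8-fold higher in iSOX2 than in MB157 iEV. Among keratins, KRT17 was 44.2-fold and KRT5 2.56-fold higher in MB157R iEV, and KRT14 2.90-fold lower. Of 27 tested basal and myoepithelial genes 17 were called higher and 9 lower, with a median log2 fold change of 1.36. CRYAB, a small heat shock protein of this list (chromosome 11, 111908564 to 111923740), had no count in MB157R iEV and stood at 225, 235 and 229 CPM in iSOX2, at least 9786-fold lower.

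Integrins are the receptors by which cells hold on to matrix. Of 20 tested integrin subunits 14 were called higher in MB157R iEV, 4 lower and 2 were not called, with a median log2 fold change of 1.47. ITGA3, the α-subunit of a laminin receptor, was 84.7-fold higher, at 1775 ± 112 against 21.0 ± 0.830 CPM, and ITGB4, the partner of ITGA6, 10.7-fold higher. ITGB6, the β-subunit of an epithelial receptor that activates TGF-β, stood at 346, 349 and 362 CPM in MB157R iEV with no count in any MB157 library, at least 15578-fold higher than in iSOX2. It was among the 40 genes of this kind given above. ITGA9 and ITGA4 were lower, ITGA9 at 0.167 CPM against 36.0 CPM in iSOX2 and ITGA4 at 0.0332 against 4.25 CPM (means).

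Luminal lineage genes were also raised in number, with 13 of 20 called higher and 6 lower and a median log2 fold change of 0.97. When only the genes of the authors' filtered tables were tested, this median was 2.33, that of the basal genes 3.02 and that of the mesenchymal genes 2.83. GATA3, a luminal transcription factor, stood at 33.8, 37.2 and 33.4 CPM in MB157R iEV with 5 counts over the iSOX2 libraries. KRT19, a simple-epithelium keratin, was 6.28-fold higher, at 1546 ± 21.0 against 246 ± 6.93 CPM. AZGP1, a secreted glycoprotein of this list (chromosome 7, 99966730 to 99976031), had no count in MB157R iEV, and stood at 237, 238 and 232 CPM in iSOX2 and 781 ± 12.6 CPM in MB157 iEV.

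Of 45 tested receptor tyrosine kinases 21 were called higher and 20 lower, near the shares over all genes tested (42.7% and 44.6%). EGFR stood at 265, 220 and 299 CPM in MB157R iEV against 28.5, 26.0 and 26.7 CPM in iSOX2, 9.65-fold higher. MET, the receptor of hepatocyte growth factor, was 20.0-fold higher at 874 ± 62.7 CPM, and EPHB2, an ephrin receptor, 130-fold higher. FGFR1 moved the other way and was raised by SOX2: it stood at 527, 544 and 529 CPM in iSOX2, 98 ± 3.32 CPM in MB157 iEV and 38.3, 42.5 and 40.6 CPM in MB157R iEV, 13.2-fold lower than in iSOX2. FLT4, a receptor of lymphatic growth factors, had no count in MB157R iEV and stood at 21.9 ± 0.518 CPM in iSOX2. Among the 8 tested SRC family genes and regulators, SRC was at 129, 129 and 132 CPM in MB157R iEV and 122, 126 and 125 CPM in iSOX2 and was not called (log2 fold change 0.07, edgeR adjusted p = 0.0615), though limma-voom called it (adjusted p = 0.0438) and scaling by library totals alone turned it to -0.073. LCK, a kinase best known from T cells, stood at 15.4 ± 1.70 CPM with 2 counts over the iSOX2 libraries, and YES1 was 1.34-fold lower.

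**Figure D4:**
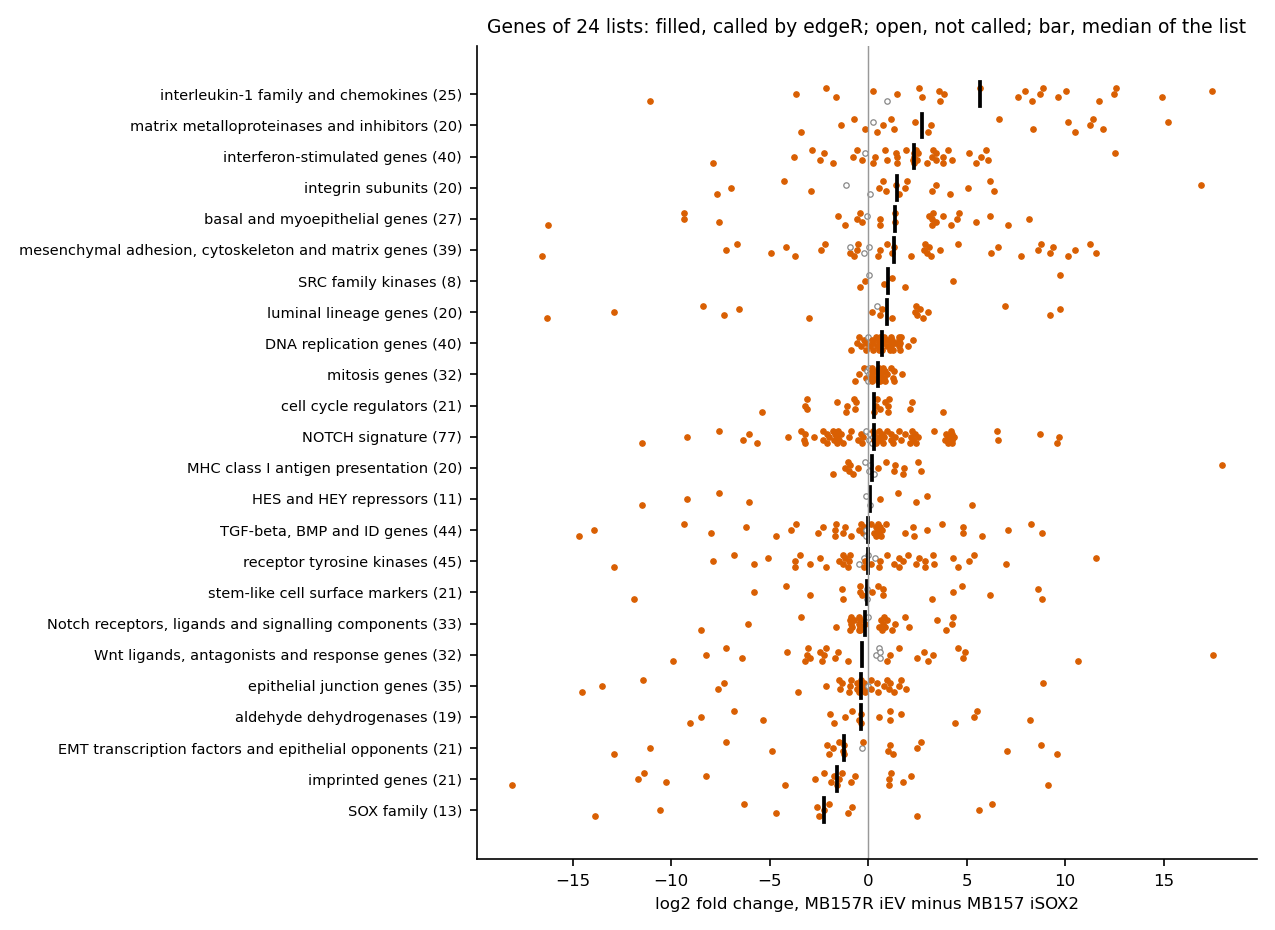
Log2 fold change, MB157R iEV minus MB157 iSOX2 (horizontal axis), of every tested gene in 24 lists (rows, number of genes in brackets), filled where edgeR called the gene and open where it did not, with a bar at the median of each list. The highest median is that of the interleukin-1 family and chemokines at 5.66. The lowest is that of the SOX family at -2.26, which is the value of the induced SOX2 itself. Every list holds genes on both sides of 0.

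The interleukin-1 family and chemokines had the highest median of the 24 lists. Of 35 listed genes 25 passed the filter, some only through counts in MB157R iEV, so this rank is a description. Of 25 tested genes of the interleukin-1 family and chemokines 20 were called higher, 4 lower and 1 was not called, and the median log2 fold change was 5.66. IL1A (chromosome 2, 112773925 to 112784493) stood at 509, 504 and 546 CPM in MB157R iEV with no count in any MB157 library, at least 22999-fold higher than in iSOX2. Its neighbor IL1B was at 550, 525 and 612 CPM with 2 counts over the iSOX2 libraries. The neutrophil chemokines IL8 and CXCL5 were 785-fold and 3437-fold higher, at 620 ± 10.3 against 0.790 ± 0.270 CPM and 419 ± 14.1 against 0.122 ± 0.0409 CPM. CX3CL1, a membrane-anchored chemokine, stood at 108, 114 and 107 CPM in iSOX2 and 0.0711, 0.0253 and 0.0434 CPM in MB157R iEV, the reverse. Against MB157 iEV, 4 of these genes were called higher and 6 lower in iSOX2.

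Matrix metalloproteinases, which cut extracellular matrix, followed the same direction, with 15 of 20 genes of the family and its inhibitors called higher and 4 lower (median log2 fold change 2.71). MMP1, the interstitial collagenase, was at 391, 392 and 423 CPM in MB157R iEV with 1 count over the iSOX2 libraries, and MMP2, a gelatinase, at 374, 388 and 409 CPM against 0.168, 0.439 and 0.177 CPM. TIMP1, an inhibitor of these proteases, was 2.61-fold lower in MB157R iEV, at 20.7 ± 0.807 against 53.9 ± 1.75 CPM. In iSOX2 it was 3.74-fold above MB157 iEV.

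Interferon-stimulated genes, the antiviral program downstream of interferon receptors, were mostly higher in MB157R iEV: 30 of 40 were called higher and 9 lower, with a median log2 fold change of 2.34. IFI16, a DNA sensor, stood at 147, 142 and 162 CPM in MB157R iEV with 3 counts over the iSOX2 libraries. ISG15, a ubiquitin-like protein, was at 37.7, 39.3 and 36.9 CPM against 8.12, 7.0 and 7.55 CPM, 5.03-fold higher. BST2, which tethers viruses to the membrane, went the other way, with 7 counts over the MB157R iEV libraries and 13.5 ± 0.600 CPM in iSOX2. Genes of MHC class I antigen presentation, by contrast, numbered 9 higher and 7 lower of 20. Apart from B2M, HLA-C was 2.23-fold and HLA-B 1.95-fold lower in MB157R iEV, and the near-identical copies of these genes make their counts uncertain. TAPBP, which loads peptides onto class I molecules, was at 132 ± 1.84 and 130 ± 0.884 CPM and was not called.

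Wnt and TGF-β genes showed single large differences in both directions. WNT7A, a Wnt ligand (chromosome 3, 13816258 to 13880071), stood at 512, 530 and 549 CPM in MB157R iEV with no count in any MB157 library. WNT5A, a ligand of the non-canonical branch, was at 113 ± 5.11 CPM with 9 counts over the iSOX2 libraries. AXIN2, a feedback target of Wnt signaling, was 3.17-fold lower in MB157R iEV than in iSOX2. DKK1, a secreted Wnt antagonist, was raised in both cell groups relative to MB157 iEV: it stood at 68.4, 62.3 and 66.1 CPM in iSOX2, 30.9, 35.3 and 31.7 CPM in MB157R iEV and 0.788 ± 0.132 CPM in MB157 iEV, so that MB157R iEV was 2.01-fold below iSOX2. Of the 32 tested Wnt genes 12 were called higher and 16 lower. Of 44 tested TGF-β, BMP and ID genes 22 were called higher and 20 lower. Over all genes tested 42.7% were called higher and 44.6% lower. FST, which encodes the activin inhibitor follistatin, was 465-fold higher in MB157R iEV, at 156 ± 8.80 against 0.336 ± 0.113 CPM, and INHBA, a subunit of activin A, 139-fold higher. BMP7, a bone morphogenetic protein, and LEFTY2, a Nodal inhibitor, had no count in MB157R iEV and stood at 74.9 ± 3.70 and 45.4 ± 3.20 CPM in iSOX2.

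Genes of cell division were mostly lower in iSOX2 than in MB157 iEV, and mostly higher in MB157R iEV than in iSOX2. Of 32 tested mitosis genes 24 were called higher in MB157R iEV than in iSOX2, 4 lower and 4 were not called, with a median log2 fold change of 0.51. Against MB157 iEV, all 32 were called lower in iSOX2 (median -0.59), and in MB157R iEV 9 were called higher and 20 lower (median -0.17). MKI67, which encodes the proliferation marker Ki-67, stood at 372, 308 and 363 CPM in MB157R iEV, 201, 193 and 196 CPM in iSOX2 and 257, 266 and 278 CPM in MB157 iEV. TOP2A, a topoisomerase of dividing cells, was at 853, 812 and 907 CPM, 381, 386 and 388 CPM, and 550, 582 and 579 CPM in the same order. Both genes were thus highest in the resistant cells. They were named after their values were seen, and most of the mitosis list was lower in MB157R iEV than in MB157 iEV. BUB1B, a spindle checkpoint kinase, was 3.23-fold higher in MB157R iEV than in iSOX2. AURKA, a mitotic kinase, and BIRC5, which encodes survivin, were lower, 1.61-fold and 1.39-fold, so that they stepped down from MB157 iEV to iSOX2 to MB157R iEV.

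Of the DNA replication genes 32 of 40 were called higher in MB157R iEV than in iSOX2 and 7 lower, with a median log2 fold change of 0.69. Against MB157 iEV, 1 was called higher and 35 lower in iSOX2 (median -0.34), and 27 higher and 10 lower in MB157R iEV (median 0.42). CDC6, which loads the replicative helicase, stood at 117, 113 and 120 CPM in MB157R iEV, 27.2, 29.8 and 29.7 CPM in iSOX2 and 37.7 ± 1.54 CPM in MB157 iEV. MCM7, a subunit of that helicase, was 2.21-fold and RRM2, which makes deoxynucleotides, 2.96-fold higher than in iSOX2. Cell counts do not stand in the deposited files, so these are levels of RNA and not rates of division.

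Cell cycle regulators went both ways, 11 of 21 called higher and 10 lower, beside 42.7% and 44.6% of all genes tested. CDKN1A, which encodes the inhibitor p21, stood at 315, 312 and 304 CPM in MB157R iEV, 69.0, 67.4 and 65.8 CPM in iSOX2 and 18.3, 16.9 and 16.4 CPM in MB157 iEV. It was thus raised 3.91-fold by SOX2 and stood a further 4.60-fold higher in MB157R iEV. E2F3, a transcription factor of the S phase, was 13.7-fold higher in MB157R iEV, at 1033 ± 10.1 against 75.2 ± 2.04 CPM, whereas its relative E2F2 was 9.20-fold lower. RB1, the retinoblastoma protein that restrains E2F factors, stood at 3.27, 3.03 and 3.95 CPM in MB157R iEV, 27.8, 30.1 and 31.3 CPM in iSOX2 and 30.5 ± 1.90 CPM in MB157 iEV, 8.69-fold lower than after SOX2. CDKN1B, which encodes the inhibitor p27, was 2.21-fold lower.

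**Figure D5:**
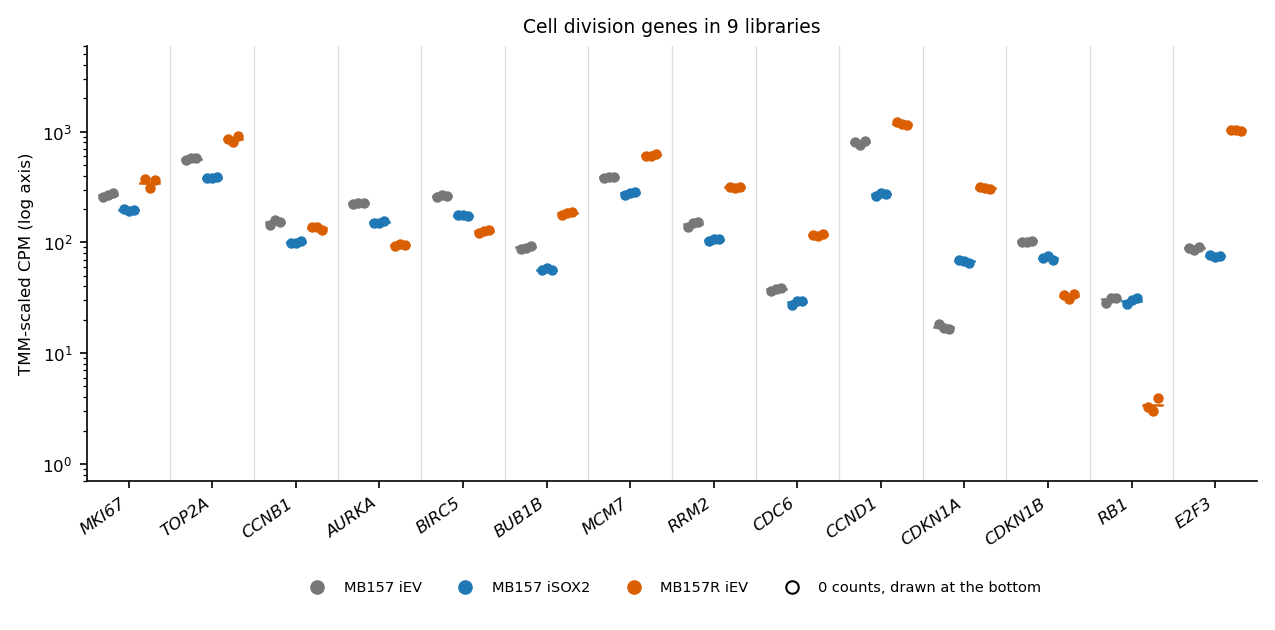
TMM-scaled CPM (vertical log axis) of 14 cell division genes in each library of MB157 iEV (grey), MB157 iSOX2 (blue) and MB157R iEV (orange), where lines mark means. CDKN1A climbs from a mean of 17.2 CPM to 67.4 and 310 CPM in that order of groups, and RB1 lies near 30 CPM in both MB157 groups and at 3.4 CPM in MB157R iEV.

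The largest falls of all were genes without a count in MB157R iEV. PEG3, an imprinted zinc finger gene (chromosome 19, 56810082 to 56840726), stood at 790, 768 and 828 CPM in iSOX2 and 2025 ± 18.2 CPM in MB157 iEV, so that MB157R iEV lay at least 33903-fold below iSOX2. NLRP2, a NOD-like receptor (chromosome 19, 54965284 to 55001138), stood at 300, 294 and 301 CPM in iSOX2. IRX5, a homeobox gene, stood at 129 ± 2.70 CPM, TSPYL5 at 122 ± 0.363 CPM and NUPR1, a stress-induced chromatin protein, at 108 ± 2.62 CPM in iSOX2. PEG3 and AZGP1 were already lower in iSOX2 than in MB157 iEV, by 2.55-fold and 3.32-fold, while NLRP2 stood at 282 ± 2.87 CPM there. Of 21 tested imprinted genes 15 were called lower and 6 higher in MB157R iEV (median log2 fold change -1.61). IGF2, an imprinted growth factor, went the other way, at 369, 384 and 403 CPM in MB157R iEV against 0.694, 0.943 and 0.398 CPM in iSOX2. Besides genes already named, the largest rises were CSF2, which encodes the cytokine GM-CSF, with 154 ± 4.19 CPM, KCNJ15, a potassium channel, with 257 ± 7.13 CPM, and CDH13, a cadherin without a cytoplasmic tail, with 116 ± 12.8 CPM in MB157R iEV, each with no count in iSOX2.

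Zinc finger genes of chromosome 19, a set formed after the values of PEG3 were seen, were mostly lower in MB157R iEV. Of 227 tested genes named ZNF on this chromosome 182 were called lower and 17 higher, with a median log2 fold change of -0.88. Of 232 ZNF genes elsewhere 144 were called lower and 54 higher (median -0.43), and of 834 other genes of chromosome 19 479 were called lower and 261 higher (median -0.49). Both the family and the chromosome thus moved with the difference, and their parts were not tested. Members of this family resemble each other in sequence, which makes their counts uncertain.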

How the data were processed

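RNA was sequenced from 12 libraries, and the 9 of MB157R iEV, MB157 iSOX2 and MB157 iEV were used, the others only in 1 alternative fit and for values outside the comparison. Per the study's methods and the submitters' processing notes, the authors aligned reads to hg38 with STAR and obtained estimated counts per gene with Salmon, with the reverse strand setting and without pooling libraries, and 88.0% of the deposited values are whole numbers. The authors' log2 tables hold TMM-scaled values (edgeR 3.42.4, limma 3.56.2) of filtered genes, and only their gene names served here, as an alternative filter.

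Counts were rounded, and genes with a mean of at least 5 over the 6 libraries were kept, which removed 12837 entries. Differences were tested with edgeR 4.0.16 in R 4.3.3 (TMM, quasi-likelihood test, prior count 0.125, Benjamini-Hochberg adjustment over 16907 genes), and comparisons with MB157 iEV came from 1 fit of 9 libraries. The steps were checked on simulated data in which few genes changed, so the check does not cover differences as widespread as these. Positions and promoters came from RefSeq on GRCh38.p14, with a position for 14650 tested genes. Alternatives used DESeq2 1.42.0 and limma 3.58.1. Intervals and floors cover counting error and library spread only.

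The members, the 24 gene lists, the 7 marker lists and the tests were chosen with earlier results of these data known. Named genes were those the study names in these cells, the 8 largest called rises and falls without overlap at a mean of 10 CPM or more, in each list the 2 largest called rises and falls at 1 CPM or more and the gene nearest to 0 that was not called, and the 6 rises and 6 falls of iSOX2 against MB157 iEV. Others were named after their values were seen: AXIN2, CDKN1B, COL17A1, CTGF, CXCL5, DKK1, DSP, EGFR, ESRP1, FGFR1, FN1, HLA-B, IL8, INHBA, ISG15, ITGB4, JAG1, KRT5, KRT14, KRT17, KRT19, LGR5, MCM7, MET, MKI67, MMP2, NOTCH2, NRARP, PYCR1, RB1, RRM2, SNAI1, SOX4, SOX13, SOX21, TOP2A and ZMYM2, together with the single markers and the 7 genes close between groups. Some genes are not reported here.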

Additional observations from a re-analysis of the deposited data

Results flagged for a closer look

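The libraries of MB157R with inducible N1-ICD served in 1 alternative fit but in no comparison of the report, and held reads of 6 of the 23 named genes that had no count in MB157R iEV, above 3 counts in every library. The mean levels over 3 libraries were 8.07 ± 1.33 CPM for HES5, 1.04 ± 0.158 CPM for HEYL and 0.592 ± 0.0745 CPM for HEY2, 2.52 ± 0.560 CPM for NUPR1, 0.607 ± 0.298 CPM for AZGP1 and 0.467 ± 0.114 CPM for CRYAB (SD). HES5 was thus above its mean of 2.97 CPM in MB157 iEV, whereas the mean levels of HEYL, HEY2, NUPR1, AZGP1 and CRYAB stayed below those in MB157 iSOX2. These differences were not tested.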

How the results depend on the processing

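For 186 named genes, 24 lists and the counts of calls, values were recomputed under 18 alternatives. The number of genes called lay between 14373 and 14646 when any 1 library was left out, between 14420 (DESeq2) and 14783 (library totals alone) under the other tools, scalings and sets of libraries, and at 15618 without a filter, against 14759. When the null was a log2 fold change of 1 it was 7074, with 3364 higher and 3710 lower, because the test asks for a larger difference, and 20 named genes, among them CDH1, MKI67, NRARP, DKK1, VIM, MYC, RBPJ, HES4, AURKA and BIRC5, were no longer called. With fewer genes tested, calls lower by at least 4-fold numbered 1403 at a mean count of at least 50, and 1199 were higher and 1086 lower by that much on the genes of the authors' filtered tables. CD44 was called lower under library totals alone (-0.18, adjusted p = 1.1e-04), at a mean count of at least 50 (-0.09, 0.0253), on the authors' genes (-0.11, 0.00757) and without MB157R iEV replicate 3, and HES1 was called higher without MB157R iEV replicate 1. Under library totals alone, SRC at -0.073, TAPBP at -0.11 and CDT1 at -0.12 turned to lower and were called, and 11 other genes, all with a log2 fold change below 0, became called: CD44, PSEN2 (-0.16, 0.0102), MARVELD2 (-0.15, 0.0461), HMMR (-0.14, 0.00213), ACVR2A (-0.27, 0.00351) and 6 of the 7 genes close between groups. FRAS1 was called with the replicate block (adjusted p = 0.0299). Medians of the HES and HEY list (-0.08 to 0.55), stem-like markers (-0.18 to 0.09) and receptor tyrosine kinases (-0.14 to 0.55) took either sign. So did those of Wnt genes (-1.31 to 0.32), TGF-β genes (-0.17 to 0.23) and cell cycle regulators (-0.15 to 0.36). Medians that kept their sign but moved by over 1.5 times at the extremes were those of the NOTCH signature (0.15 to 0.36), Notch components (-0.35 to -0.17), integrins (0.91 to 1.87), MHC class I genes (0.02 to 0.30), luminal genes (0.83 to 2.33), basal genes (1.22 to 3.02), mesenchymal genes (1.19 to 2.83), metalloproteinases (2.32 to 4.84) and the interleukin-1 family and chemokines (3.61 to 8.11). Whether the replicate numbers pair the libraries is not given in the labels. Deviations of same-numbered libraries correlated at 0.0749, -0.0300 and 0.0142 over 14146 genes, and those of libraries with other numbers at -0.0691 to 0.0462. With the replicate block 14538 genes were called.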
